A study of Homo sapiens with 6 samples.

Results

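The MYC and MAX network is a family of DNA-binding proteins that pair with each other to switch growth genes up or down. It was followed here through 10 genes chosen by name, MYC, MYCL, MAX, MXD1, MXD3, MXD4, MXI1, MNT, MLX and MGA, out of 58735 genes in the expression table. Cultures of RKO, a human cell line established from a colorectal carcinoma, were compared between 3 control libraries (Vector) and 3 libraries of cells with enforced expression of the long non-coding RNA LOC101927668 (LOC_OE). Per the study's methods, the transcript was delivered in a plenti6 lentivirus under puromycin selection, and RNA came from whole cultures grown with serum in RPMI or DMEM. No other genotype, dose or time point was sampled, and the methods do not say whether a line is 1 clone. The series calls the 3 libraries of a group biological replicates, and every p-value given here measures the spread between these libraries only.

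MYC and MYCL activate transcription only as dimers with MAX, which carries no activation domain of its own. The MXD proteins, MXI1 and MNT also dimerise with MAX, occupy the same DNA and bring in the SIN3 corepressor complex, and MGA brings MAX into a Polycomb complex. MLX is the partner of a parallel branch, in which its dimers with MLXIP (MondoA) or MLXIPL (ChREBP) respond to glucose metabolites. In colorectal tumours MYC is a well known target of Wnt signalling.

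These dimers share a preference for the E-box, whose palindromic core is CACGTG. The core was searched in windows from 250 bases before to 50 bases after annotated start sites, taken from RefSeq on GRCh38.p14. Being palindromic, it reads the same on both strands, and no other motif was searched. It was present in 2548 of 35116 windows (7.26%) and in 1205 of the 9464 tested genes with a window (12.7%). Windows were found for 9 of the 10 network genes, all but MYC, and 3 of the 9 held the core: MXD4, MNT and MLX. The sequences below show these 3 matches, and those of 3 genes downstream of the network whose values are given further on, with 10 bases on each side and the core in capitals. Each is written 5′ to 3′ on the strand of its gene.
MXD4: gccgggccacCACGTGctgttgctaa
MNT: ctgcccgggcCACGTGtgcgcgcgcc
MLX: gggcgcgggtCACGTGggcacgccac
ODC1: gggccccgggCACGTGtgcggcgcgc
SLC7A5: ccggacgacgCACGTGctccgagctg
ARRDC4: acggcctgtgCACGTGcacgccggag
The MXD4 stretch lies at chr4:2262332-2262357 on the minus strand, with its core 238 bases before the start site. That of MNT lies at chr17:2401238-2401263 on the minus strand, 193 bases before the start. That of MLX lies at chr17:42567040-42567065 on the plus strand, 50 bases before the start. The others lie at chr2:10448026-10448051 (ODC1, minus strand), chr16:87869622-87869647 (SLC7A5, minus strand) and chr15:97960483-97960508 (ARRDC4, plus strand). ODC1 held 2 cores in its window. A match describes the letters of the window and is not evidence of binding.

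The values were FPKM, fragment numbers scaled by gene length and by library size, so that genes and libraries can be compared. The libraries held 15008842 to 18410231 reads on genes. Read numbers for LOC101927668 were 1, 1 and 0 under Vector, against 231, 270 and 276 under LOC_OE, so the labels held for every library. LOC_OE replicate 1 stood apart: across genes it correlated with the other LOC_OE libraries at r = 0.967 and r = 0.962, whereas they correlated with each other at r = 0.982 and the Vector pairs at r = 0.982 to 0.983. Results are therefore given with and without it. Of 8 colorectal epithelial markers, EPCAM, KRT8, KRT18 and CDX2 were expressed, whereas KRT19, KRT20, CDH1 and VIL1 were below an FPKM of 0.5 in every library. The summed FPKM of the 8 was 39.4 to 41.5 in Vector and 48.4 to 89.6 in LOC_OE. KRT18 alone was at 18.1 to 19.8 in Vector and 25.1 to 67.5 in LOC_OE, where replicate 1 was the highest. For EPCAM, KRT8 and CDX2 the groups overlapped. All 8 markers of fibroblasts, endothelial cells and leukocytes were below 0.5 in every library, with sums of 0.158 to 0.220 in Vector and 0.0438 to 0.158 in LOC_OE. The part of the epithelial sum in the results was not tested.

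All 10 network genes passed the filter on low values, as did 16061 genes in all. Log2 fold changes are differences of mean log2(FPKM + 1), LOC_OE minus Vector, which understate the change of weakly expressed genes. A gene passed the test at a Benjamini-Hochberg adjusted p under 0.05 from limma. Of the 10, MAX rose, MXD3 and MNT fell, and 7 did not pass. That is 30% of the network, against 20.4% of all genes tested (10.7% higher, 9.74% lower). The median log2 fold change of the 10 was -0.11, against 0.02 over all genes. Without LOC_OE replicate 1, 6 of the 10 passed against 36.7% of all genes (19.8% higher, 16.8% lower), namely MYC, MAX and MXD1 higher and MXD3, MXD4 and MNT lower.

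**Figure D1:**
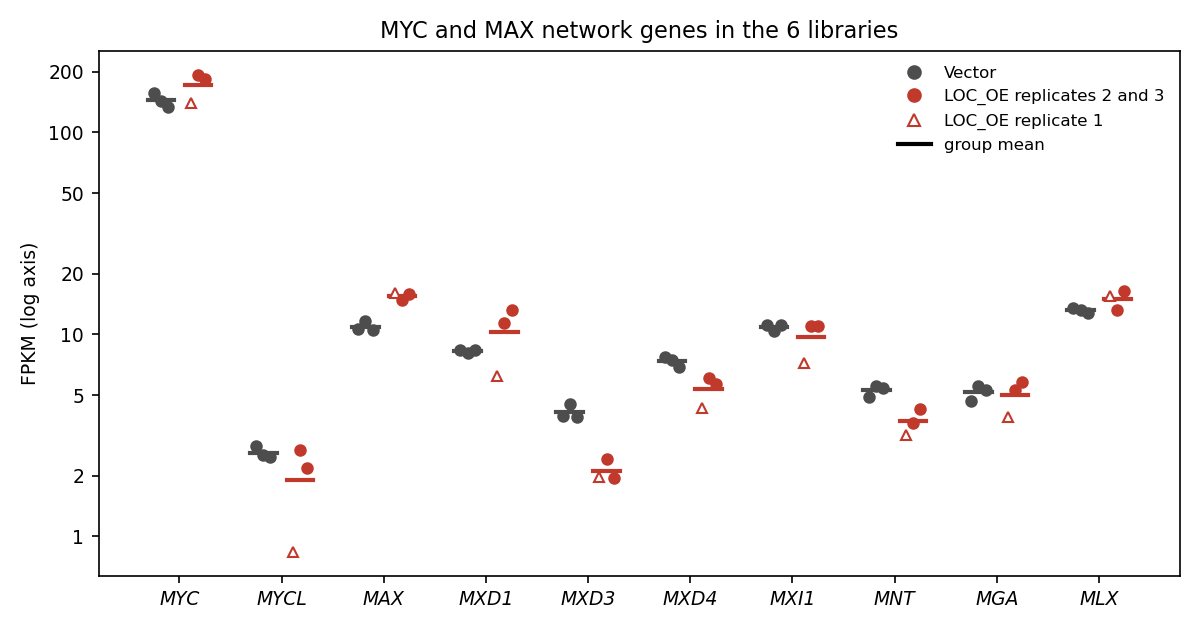
FPKM of each network gene (log axis) in the 3 Vector and 3 LOC_OE libraries, with points for libraries, an open triangle for LOC_OE replicate 1 and bars for group means. The LOC_OE points of MAX lie above all Vector points and those of MXD3, MXD4 and MNT below them, while MYC lies between 134 and 193 in every library and no other gene exceeds 16.4.

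MYC, on chromosome 8 (GRCh38 127735434 to 127741434, plus strand), was by far the most abundant network transcript. Its FPKM was 157, 143 and 134 in the Vector libraries and 140, 193 and 183 in the LOC_OE libraries. LOC_OE replicates 2 and 3 lay above every Vector library, but replicate 1 lay among them, so the groups overlapped. The Vector mean was 145 ± 12.0 and the LOC_OE mean 172 ± 28.3 (SD, n = 3 each), above 98.9% and 98.8% of the genes tested. The log2 fold change of 0.24 (95% interval -0.11 to 0.59) did not pass the test (limma, adjusted p = 0.279). Without LOC_OE replicate 1 it was 0.38 (limma, adjusted p = 0.0151). With every library kept, the value depended on the fit. It was -0.018 with an equal FPKM total per library and -0.086 with quantile normalization, neither past the test. With array weights it was 0.42 (limma, adjusted p = 0.00281). In RNA from whole cultures, a change in the share of cells that express a gene cannot be told apart from a change per cell.

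MYCL, the paralogue that can replace MYC in some tissues, had the lowest mean of the 10 in both groups, in LOC_OE only with replicate 1 kept. Its FPKM was 2.79, 2.54 and 2.46 in Vector and 0.839, 2.68 and 2.19 in LOC_OE. LOC_OE replicate 1 was the lowest library by a wide margin and replicate 2 lay within the Vector range. The log2 fold change was -0.37 with all libraries (limma, adjusted p = 0.341) and -0.07 without that library (adjusted p = 0.621). MYCN, the third MYC gene, had 0 reads in all 6 libraries.

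MAX, the obligate partner of MYC and a partner of its antagonists, rose. Its FPKM was 10.6, 11.6 and 10.6 in Vector and 16.0, 14.8 and 15.9 in LOC_OE, 871 to 955 and 1036 to 1136 reads respectively. Every LOC_OE library was above every Vector library, including LOC_OE replicate 1, which was the highest of the 6. The mean went from 10.9 ± 0.589 to 15.6 ± 0.663 (SD, n = 3 each), a ratio of 1.43, and the log2 fold change was 0.48 (SE 0.079, 95% interval 0.29 to 0.67, limma adjusted p = 0.0131). Without LOC_OE replicate 1 it was 0.46 (adjusted p = 0.00426). The call was lost when any 1 of the 3 Vector libraries was left out, with adjusted p up to 0.0711, and when every library was given an equal FPKM total (log2 fold change 0.23, adjusted p = 0.110). That rescaling shifted the median of all genes to -0.18, and MAX lay 0.41 above that median, against 0.46 above it on the deposited scale.

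Among the antagonists, MXD3 and MNT fell, and MXD1, MXD4 and MXI1 did not pass. MXD3, a repressor usually tied to the S phase of dividing cells, fell the most. Its FPKM was 3.95, 4.51 and 3.91 in Vector and 1.96, 2.41 and 1.95 in LOC_OE. No LOC_OE library reached the lowest Vector library, and the ratio of means was 0.511 (4.13 ± 0.337 against 2.11 ± 0.259, SD, n = 3 each). The log2 fold change was -0.72 (SE 0.10, 95% interval -0.96 to -0.48, limma adjusted p = 0.00877) and -0.69 without LOC_OE replicate 1 (adjusted p = 0.00466). It was the only network gene that also passed a fold change of at least 1.5, a rule met by 10.2% of all genes (4.63% higher, 5.58% lower). Leaving out Vector replicate 2 raised its adjusted p to 0.0585. MXD3 shares exon bases with neighbours, 22.5% with PRELID1 on the opposite strand and 18% with RAB24 on the same strand, and mean FPKM of PRELID1 was 45.8 in Vector and 66.0 in LOC_OE.

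MNT, a broadly expressed repressor regarded as the main counterweight to MYC, fell as well. Its FPKM was 4.90, 5.55 and 5.45 in Vector and 3.19, 3.65 and 4.29 in LOC_OE. The groups did not overlap, and LOC_OE replicate 1 was the lowest library. The mean went from 5.30 ± 0.347 to 3.71 ± 0.551 (SD, n = 3 each), with a log2 fold change of -0.42 (SE 0.11, 95% interval -0.69 to -0.16, limma adjusted p = 0.0407). Without LOC_OE replicate 1 it was -0.34 (adjusted p = 0.0283). The call was lost without any 1 Vector library or without LOC_OE replicate 2, with adjusted p up to 0.153.

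MXD4 had values below Vector in every LOC_OE library but did not pass the test. Its FPKM was 7.77, 7.45 and 6.88 in Vector and 4.32, 6.05 and 5.67 in LOC_OE. LOC_OE replicate 1 was again the lowest. The log2 fold change was -0.41 (95% interval -0.71 to -0.11, limma adjusted p = 0.0636), and -0.29 without LOC_OE replicate 1 (adjusted p = 0.0249). It passed in 4 of 11 other fits with every library kept, at the same sum of FPKM, with quantile normalization, with array weights and with voom (adjusted p 0.0114 to 0.0446). Over the network, groups that did not overlap were therefore found for 1 gene above (MAX) and 3 below (MXD3, MXD4 and MNT), against 24.4% and 20.9% of all genes tested (45.3% together).

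MXD1, the antagonist that typically appears as cells differentiate, divided the LOC_OE libraries. Its FPKM was 8.42, 8.10 and 8.33 in Vector and 6.21, 11.3 and 13.2 in LOC_OE. Replicate 1 lay below every Vector library and replicates 2 and 3 above, so the groups overlapped. The log2 fold change was 0.22 with all libraries (95% interval -0.37 to 0.81, limma adjusted p = 0.553) and 0.51 without replicate 1 (adjusted p = 0.00466). MXI1, a relative of the MXD genes, had FPKM of 11.2, 10.4 and 11.1 in Vector and 7.25, 11.0 and 11.0 in LOC_OE. Only LOC_OE replicate 1 was outside the Vector range, and the log2 fold change was -0.16 (adjusted p = 0.493), or 0.02 without it (adjusted p = 0.849).

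MGA, the scaffold of the MAX-containing Polycomb complex, had FPKM of 4.67, 5.54 and 5.30 in Vector and 3.92, 5.31 and 5.83 in LOC_OE. The groups overlapped, with a log2 fold change of -0.05 (95% interval -0.38 to 0.29, limma adjusted p = 0.835). MLX had FPKM of 13.5, 13.2 and 12.8 in Vector and 15.4, 13.3 and 16.4 in LOC_OE. LOC_OE replicates 1 and 3 were above every Vector library and replicate 2 was within their range, and the log2 fold change of 0.17 did not pass (95% interval -0.06 to 0.41, adjusted p = 0.247). PSMC3IP, on the opposite strand, shares 18.1% of the exon bases of MLX.

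**Figure D2:**
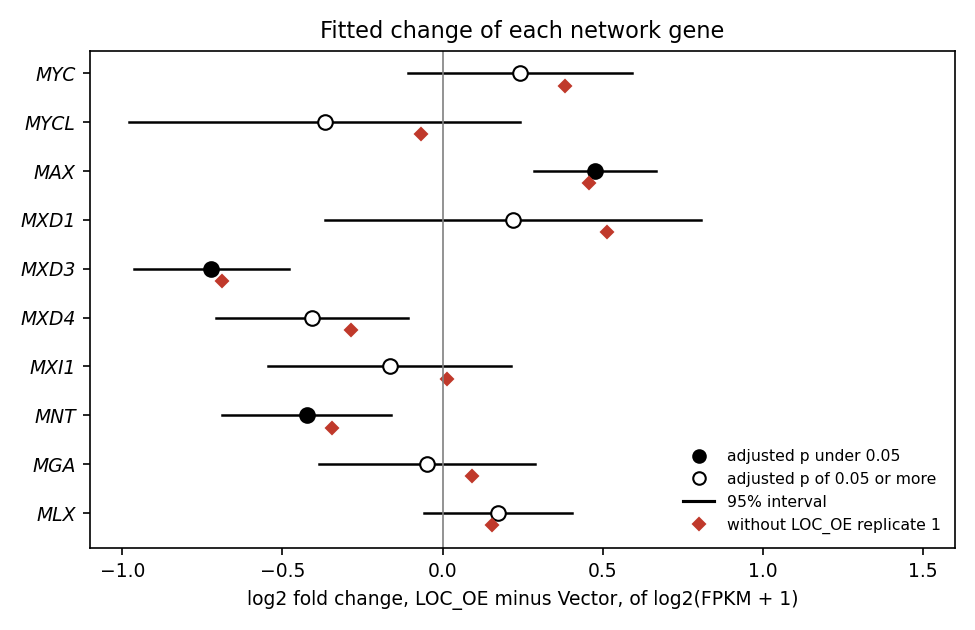
Log2 fold change of each network gene (LOC_OE minus Vector, log2(FPKM + 1)) with its 95% interval from all 6 libraries, filled where the adjusted p was under 0.05, and with red diamonds for the value without LOC_OE replicate 1. MAX at 0.48, MNT at -0.42 and MXD3 at -0.72 are filled, and the diamonds of MYC (0.38) and MXD1 (0.51) lie to the right of their values from all libraries.

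The order of the group means, in FPKM and so per length, kept MYC first and MYCL last in both groups. Without LOC_OE replicate 1, the LOC_OE mean of MYCL (2.44) was above that of MXD3 (2.18). In Vector it ran MYC, MLX, MAX, MXI1, MXD1, MXD4, MNT, MGA, MXD3 and MYCL. Neighbours in that order whose libraries overlapped were MAX with MXI1 and MNT with MGA. In LOC_OE it ran MYC, MAX, MLX, MXD1, MXI1, MXD4, MGA, MNT, MXD3 and MYCL. There the overlapping neighbours were MAX with MLX, MXD1 with MXI1, MXD4 with MGA, MGA with MNT and MXD3 with MYCL. The mean of MAX was thus below that of MLX in Vector and above it in LOC_OE, and the ratio of MLX to MAX was 1.27, 1.14 and 1.21 in Vector and 0.962, 0.895 and 1.03 in LOC_OE.

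Because MYC and its antagonists compete for MAX, transcript ratios within each library were also taken, which do not depend on the scaling of the libraries. They are descriptions without a test, and transcript ratios are not protein ratios. The ratio of MYC to MAX was 14.8, 12.3 and 12.6 in Vector and 8.75, 13.1 and 11.5 in LOC_OE, and the groups overlapped. The summed FPKM of the antagonists MXD1, MXD3, MXD4, MXI1 and MNT was 36.2, 36.0 and 35.7 in Vector and 22.9, 34.5 and 36.2 in LOC_OE. Only LOC_OE replicate 1 was far from the Vector sums. The ratio of MYC to this sum was 4.35, 3.96 and 3.75 in Vector and 6.11, 5.62 and 5.07 in LOC_OE, without overlap. The LOC_OE libraries reached it differently. In replicate 1 MYC (140) lay within the Vector range and the sum was low (22.9). In replicates 2 and 3 MYC was above Vector (193 and 183), with sums of 34.5 and 36.2. The ratio of MAX to this sum was 0.293, 0.323 and 0.296 in Vector and 0.698, 0.430 and 0.440 in LOC_OE, also without overlap.

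The make-up of the antagonist sum shifted between its members. MXD1 made up 23.3%, 22.5% and 23.4% of it in Vector and 27.1%, 32.9% and 36.6% in LOC_OE. In LOC_OE replicate 1, MXD1 itself was below every Vector library (FPKM 6.21) and the antagonist sum was 22.9. MXD3 made up 10.9%, 12.5% and 11.0% in Vector and 8.56%, 6.99% and 5.41% in LOC_OE. MXD4 made up 21.5%, 20.7% and 19.3% in Vector and 18.8%, 17.6% and 15.7% in LOC_OE. The shares of MXI1 and MNT overlapped between the groups. MXI1 made up 28.9% to 31.1% in Vector and 30.4% to 31.9% in LOC_OE, and MNT 13.5% to 15.4% and 10.6% to 13.9%. The ratio of MXD1 to MXD3 was accordingly 2.13, 1.79 and 2.13 in Vector and 3.16, 4.71 and 6.78 in LOC_OE, higher in all 3 LOC_OE libraries.

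**Figure D3:**
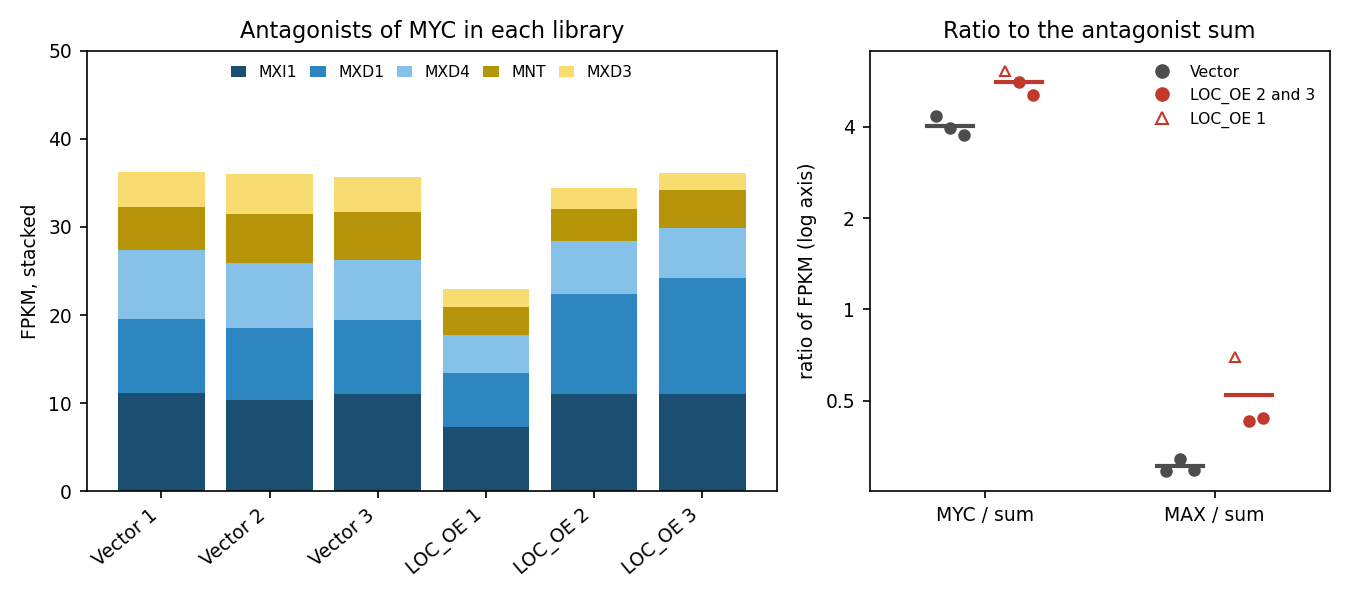
Left, stacked FPKM of the 5 antagonists in each library; right, ratio of MYC and of MAX to their sum (log axis), with points for libraries, an open triangle for LOC_OE replicate 1 and bars for group means. The stack of LOC_OE replicate 1 reaches 22.9 and the others 34.5 to 36.2, and for both ratios the lowest LOC_OE point lies above the highest Vector point.

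In the MLX branch, the mean FPKM of MLXIPL in LOC_OE was 0.105 of that in Vector, with FPKM of 1.72, 1.53 and 1.33 in Vector and 0.104, 0.220 and 0.155 in LOC_OE. The Vector values rest on 155, 137 and 119 reads and the LOC_OE values on 8, 17 and 11, and no LOC_OE library came near the Vector libraries. MLXIPL met the filter on low values through the Vector libraries alone, so its values are given without a test. MLXIP, at 9.66, 9.81 and 9.49 in Vector and 11.2, 10.2 and 10.7 in LOC_OE, was above Vector in every LOC_OE library but did not pass (log2 fold change 0.14, adjusted p = 0.227). The ratio of MLXIP to MLXIPL was 5.63 to 7.14 in Vector and 46.4 to 108 in LOC_OE.

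Of 4 genes known to be induced by MLX dimers, 3 were expressed and all 3 passed the test, 1 higher and 2 lower, against 20.4% of all genes (10.7% higher, 9.74% lower). TXNIP, an inhibitor of glucose uptake, had FPKM of 116, 97.9 and 106 in Vector and 30.9, 64.1 and 65.6 in LOC_OE, with LOC_OE replicate 1 the lowest (log2 fold change -1.05, limma adjusted p = 0.0468; -0.70 without that library, adjusted p = 0.00228). ARRDC4, its relative, had 8.56, 7.86 and 7.26 in Vector and 4.34, 5.97 and 5.58 in LOC_OE (log2 fold change -0.50, adjusted p = 0.0355). Each LOC_OE library was below each Vector library for both genes. KLF10, a TGF-beta-inducible repressor, rose (log2 fold change 0.85, adjusted p = 0.00705). PKLR was below the filter. The calls of TXNIP and ARRDC4 were lost without any 1 Vector library or without LOC_OE replicate 2, with adjusted p up to 0.140 and 0.124 in limma. That of ARRDC4 was lost also without LOC_OE replicate 3, and that of KLF10 without Vector replicate 2 (adjusted p = 0.0529).

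The wider set of partners and regulators of the network held 72 genes, of which 68 were tested. Of these, 14 rose and 4 fell (26.5% past the test, against 20.4% of all genes), with a median log2 fold change of 0.18. Without LOC_OE replicate 1, 26 were higher and 10 lower, where 36.7% of all genes passed. Without any 1 Vector library none passed in limma, where 1.63% to 3.74% of all genes did. MLXIPL, which met the filter through the Vector libraries alone, is counted among the 68 tested, the 4 that fell and the 10 lower. Among 11 coactivators that MYC brings to promoters, 2 rose and 0 fell (18.2%, against 20.4% of all genes past the test, 10.7% higher and 9.74% lower). The 2 were TRRAP, the scaffold of histone acetyltransferase complexes (log2 fold change 0.37, limma adjusted p = 0.0254), and ACTL6A, a chromatin-remodelling subunit (0.51, adjusted p = 0.0131).

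Among 12 genes of the SIN3 complex and MIZ1, through which MXD proteins, MNT and MYC repress, 4 rose and 0 fell in limma (33.3%, against 20.4% of all genes), with 1 lower at an unadjusted p under 0.05 and 0 lower by voom. HDAC2, a histone deacetylase, rose the most, from 3.57, 3.01 and 3.54 FPKM in Vector to 7.20, 5.87 and 5.59 in LOC_OE (log2 fold change 0.72, limma adjusted p = 0.0117). RBBP4, HDAC1 and SIN3A were the others, at 0.46, 0.39 and 0.28. SIN3B was at -0.04 (adjusted p = 0.750) and ZBTB17, which encodes MIZ1, at -0.26 (adjusted p = 0.208). The median of the 12 was 0.06.

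Among 9 partners of MGA in its Polycomb complex, 3 rose and 0 fell in limma (33.3%, against 20.4% of all genes, and 0 lower also at an unadjusted p under 0.05 and by voom), with a median log2 fold change of 0.47. TFDP1, the dimer partner of E2F factors, was at 34.5, 30.3 and 29.8 FPKM in Vector and 74.9, 48.3 and 46.4 in LOC_OE (log2 fold change 0.79, limma adjusted p = 0.0339). CBX3, a heterochromatin protein, was at 0.75 and YAF2, a Polycomb subunit, at 0.47. For TFDP1 and CBX3 the LOC_OE replicate 1 value was the highest, and without it the log2 fold changes were 0.57 and 0.52. PCGF6, the subunit that defines the complex, was at 0.12 (adjusted p = 0.484).

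Of 17 genes that act on the stability of the MYC protein, 1 rose and 2 fell (17.6%, against 20.4% of all genes). SET, an inhibitor of the phosphatase PP2A, rose from 176, 165 and 168 FPKM to 340, 265 and 269 (log2 fold change 0.77, limma adjusted p = 0.0117). GSK3B, the kinase that marks MYC for destruction, fell from 15.9, 15.5 and 16.0 FPKM to 11.2, 12.8 and 12.2 (log2 fold change -0.36, adjusted p = 0.0255), and BTRC, a ubiquitin ligase subunit, was at -0.32. FBXW7, the ligase subunit that reads this mark, was at -0.09 and AURKA, a kinase that shields MYC family proteins, at 0.03, and neither passed with all libraries. Without LOC_OE replicate 1, AURKA was at -0.35 (limma adjusted p = 0.0214).

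Of 17 factors of MYC transcription and of the stability or translation of its mRNA, 16 were tested, 4 rose and 1 fell (31.2%, against 20.4% of all genes). HNRNPK, which binds the MYC promoter, was at a log2 fold change of 0.68 (limma adjusted p = 0.00956). LEF1, a Wnt transcription factor, went from 5.82, 6.07 and 5.80 FPKM to 8.69, 9.04 and 10.2 (0.58, adjusted p = 0.00977). CNBP and CTNNB1 (beta-catenin) were at 0.52 and 0.39, and MED12, of the Mediator kinase module, fell by 0.46 on the log2 scale. HNRNPD, which binds AU-rich mRNA, was at 0.12 and did not pass with all libraries (adjusted p = 0.775), and was at -0.20 without LOC_OE replicate 1 (adjusted p = 0.0207). PVT1, the non-coding neighbour of MYC on chromosome 8, was at 0.04 (adjusted p = 0.872).

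Of 49 genes that MYC is known to induce, 21 rose and 0 fell in limma (42.9% past the test, against 20.4% of all genes), and 0 were lower at an unadjusted p under 0.05 or by voom. Of the 21, 18 also passed a fold change of 1.5, and 48 of the 49 log2 fold changes were above 0. The median was 0.61, against 0.02 over all genes. Relative to the Vector mean, the list's median was 0.91 in LOC_OE replicate 1 and 0.39 in both other LOC_OE libraries. Without replicate 1, 33 were higher and 1 lower, with a median of 0.40, where 19.8% of all genes were higher and 16.8% lower. Without Vector replicate 1, 2 or 3, respectively 7, 3 and 6 of the 49 passed, where 3.74%, 1.63% and 2.56% of all genes did.

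With all libraries, the largest increase on the list was that of TFRC, the transferrin receptor, at 6.45, 6.28 and 6.56 FPKM in Vector and 41.2, 15.7 and 15.4 in LOC_OE (log2 fold change 1.61, limma adjusted p = 0.0276). Much of its mean came from LOC_OE replicate 1, and without it the value was 1.16, below SLC7A5 (1.70) and SHMT2, an enzyme of serine metabolism (1.23). Its call was lost without any 1 Vector library, with adjusted p up to 0.103 in limma. SLC7A5, a leucine transporter, was at 56.2, 55.0 and 54.1 in Vector and 134, 184 and 178 in LOC_OE (1.55, adjusted p = 0.00344), and here LOC_OE replicate 1 was the lowest of the LOC_OE libraries. SLC7A5 passed in all 6 fits that left out a library. ODC1, the first enzyme of polyamine synthesis, went from 110, 96.2 and 96.4 FPKM to 307, 218 and 211 (1.25, adjusted p = 0.00768), and its adjusted p was 0.0529 without Vector replicate 2. NCL, a nucleolar protein, was at 0.95 (adjusted p = 0.0129) and CDK4, a G1 kinase, at 0.69 (adjusted p = 0.0196). LDHA (0.82, adjusted p = 0.0858) and CAD (0.08, adjusted p = 0.654) did not pass.

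The E-box core was found in 19 of the 42 induced genes with a window (45.2%, against 12.7% of the tested genes with one). The list was written by hand from genes known to be induced by MYC. A raised share may reflect that choice, which was not tested. Of the 19, 9 rose and the median log2 fold change was 0.72. Of the 23 without the core, 9 rose and the median was 0.43. Over all genes tested, 10.7% rose. The difference between these medians was not tested, and genes outside the list were not split by the core. HSPD1 and HSPE1 are divergent neighbours and share 1 core.

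Of 8 genes that MYC is known to repress, 7 were tested, all with a log2 fold change below 0 and a median of -0.49. Of the 7, 0 rose and 1 fell (14.3%, against 20.4% of all genes, 10.7% higher and 9.74% lower). This was CDKN1A, the cyclin-dependent kinase inhibitor p21, at 115, 113 and 105 FPKM in Vector and 69.0, 57.7 and 56.7 in LOC_OE (log2 fold change -0.85, limma adjusted p = 0.00698). Its LOC_OE libraries all lay below the Vector libraries, and its adjusted p in limma was 0.0529 without Vector replicate 2. CDKN1A and GADD45A on this list are also p53 target genes.

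**Figure D4:**
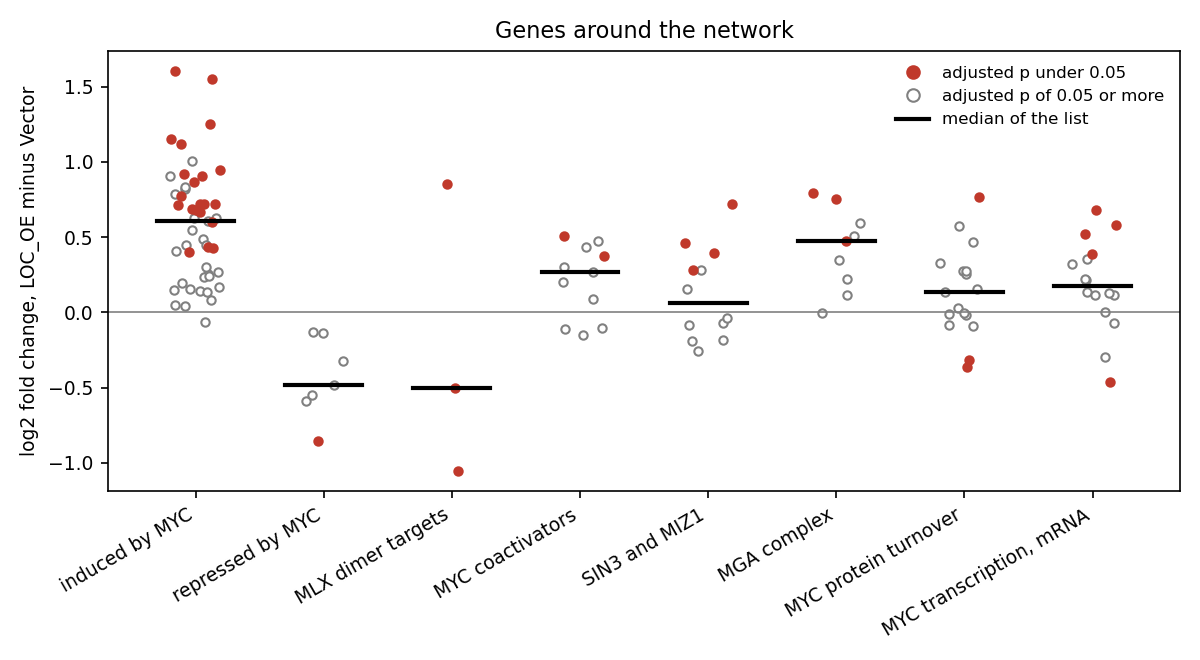
Log2 fold change (LOC_OE minus Vector, all 6 libraries) of each tested gene in 8 lists around the network, filled where the adjusted p was under 0.05, with bars for list medians. The median is 0.61 for the genes induced by MYC, -0.49 for those repressed and 0.47 for the MGA complex, against 0.02 over all genes.

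Over the 6 libraries, the tested genes whose log2(FPKM + 1) followed MYC most closely were AP002478.1 (Pearson r = 0.990), ADCY3 (0.989) and RNU6-62P (0.987). Those closest to MAX were COX6C (0.997), AC027228.2 (0.997) and MT-TE (0.995). These are descriptions over 6 libraries in 2 groups, picked from 16060 genes, and each carries the group difference as well as the spread within groups. Of the genes named here, AP002478.1, RNU6-62P and AC027228.2 lay near the filter of 0.5 FPKM. Their FPKM ran from 0.333 to 2.31, 0 to 3.06 and 0.346 to 1.91 over the 6 libraries.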

How the data were processed

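RNA of 6 RKO libraries was sequenced as paired ends on an Illumina NovaSeq instrument from NEBNext Ultra libraries. The authors deposited 1 table of FPKM for 58735 genes, with 0 unused value columns. The submitters' processing notes name HISAT2 2.0.4, StringTie 1.3.0 and hg38; the annotation is not given in the sources used here, and all 58735 identifiers matched GENCODE 29. FPKM times merged exon length gave whole reads for 100% of values above 0 (within 0.05 reads), and the library sizes equalled median-of-ratios size factors, so the FPKM were already on 1 scale. No source states the strand, so overlapping genes can share reads. Reads carry no molecular identifiers, so read numbers cover counting error only.

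limma 3.58.1 in R 4.3.3 was fitted with a variance trend to log2(FPKM + 1) for genes reaching an FPKM of 0.5 in 3 or more libraries, Vector against LOC_OE, and p-values were adjusted over all 16061 genes. An exact permutation test of 3 against 3 cannot give a p below 0.1. The 10 genes and the lists were chosen with earlier results of these data known. The lists were written by hand. Named were all 10 genes, MYCN, MLXIP, MLXIPL, LOC101927668, the 3 largest increases and decreases past the test in each list, and a fixed set of well known partners and targets, of which 1 is not reported here; PRELID1, RAB24, PSMC3IP, PKLR, HSPD1, HSPE1 and GADD45A were added to describe overlaps and list members. SHMT2 was named after its values were seen. Alternatives were a pseudocount of 0.1, no filter, a mean FPKM filter of 1, rescaling by the sum or by median-of-ratios, quantile normalization, a fit with no trend, weights per array, the replicate block, voom on the recovered reads with at least 10 in total, a fold change of at least 1.5, unadjusted p-values and leaving out each library. Rescaling to the same sum of nuclear FPKM was chosen after seeing the data. The fit was tested on simulated data with the same spread for every gene and no library set apart. That check does not cover a library that stands apart, such as LOC_OE replicate 1. Python 3.11.15 with matplotlib 3.10.9 drew the figures.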

Additional observations from a re-analysis of the deposited data

How the results depend on the processing

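MXD3 stayed past the test under all 11 other fits that kept every library (adjusted p 0.000727 to 0.0312). MAX lost its call under both rescalings to a common sum (same sum 0.23, adjusted p = 0.110; nuclear sum 0.28, adjusted p = 0.0764), and MNT without the filter (adjusted p = 0.0811). MXD4 gained a call as lower in 4 of the 11 (adjusted p 0.0114 to 0.0446). MYC and MXD1 gained a call as higher with array weights only (limma adjusted p = 0.00281 and 0.00538). Mitochondrial genes took 16.9% to 18.4% of the FPKM in Vector and 19.9% to 22.2% in LOC_OE. These sums moved the median of all genes to -0.18 and -0.14 and the share of calls that were higher from 52.2% to 18.4% and 25.8%. Except where stated, the cause of a change given here was not tested.

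Genes higher in LOC_OE numbered 1712, and 1052 without the filter, 711 at the same sum, 874 at the same nuclear sum, 4362 with array weights, 743 with the fold change of 1.5 and 3111 at an unadjusted p, or 101 to 3101 with 1 library left out. Genes lower numbered 1565, and 3162, 2518, 3724, 896 and 2744 at the same sum, the nuclear sum, array weights, the fold change and the unadjusted p, or 148 to 2637 with 1 library left out. Network genes higher numbered 1, and 0 at either sum, 3 with array weights, 0 with the fold change and 0 to 3 with 1 library left out. Network genes lower numbered 2, and 3 at the same sum, with quantile normalization, array weights or voom, and unadjusted. They numbered 1 without the filter, 1 with the fold change and 0 to 3 with 1 library left out. Of the induced genes 21 passed, and 34 with array weights, 33 unadjusted and 3 to 34 with 1 library left out. Of the repressed genes 1 passed, and 2 at either sum, with array weights, with voom and unadjusted, or 0 to 2. Of the MLX dimer targets 3 passed, and 1 without the filter or 0 to 3. Of the partners and regulators 18 passed, MLXIPL among them, and 40 with array weights, 6 with the fold change, 31 unadjusted and 0 to 36. Apart from the network genes, counts within a factor of 1.5 of the first count are not listed. Changed counts with the replicate block are given below.

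Replicate numbers were not taken to pair the libraries. Deviations of same-numbered libraries correlated at 0.111, -0.034 and 0.117, and those of differently numbered libraries at -0.128 to 0.058. These few values cannot decide whether the numbers mark pairs. With the replicate number as a block, 1125 genes were higher and 940 lower, 1 network gene was lower (MNT was lost, adjusted p = 0.0547) and 1 MLX dimer target passed.

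Log2 fold changes that changed sign, none of which had passed the test with the settings of the report, were at the same sum MYC -0.018, MXD1 -0.0099, MLX -0.071, MLXIP -0.10, PCGF6 -0.13, AURKA -0.22, HNRNPD -0.14, PVT1 -0.20 and CAD -0.17. At the nuclear sum they were MLX -0.019, MLXIP -0.049, PCGF6 -0.075, AURKA -0.17, HNRNPD -0.083, PVT1 -0.15 and CAD -0.12. With quantile normalization they were MYC -0.086, AURKA -0.17, HNRNPD -0.13, PVT1 -0.021 and CAD -0.16. With array weights they were MYCL 0.0008, MXI1 0.017, MGA 0.022, AURKA -0.34, HNRNPD -0.17 and CAD -0.025. With 1 library left out, the ranges that crossed 0 were -0.25 to 0.015 for MXI1, -0.15 to 0.092 for MGA, -0.35 to 0.24 for AURKA, -0.20 to 0.29 for HNRNPD, -0.10 to 0.17 for PVT1 and -0.038 to 0.15 for CAD. Of the changed signs, AURKA passed as lower with array weights (adjusted p = 0.0362) and without LOC_OE replicate 1 (0.0214), and HNRNPD without that library (0.0207).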
